A study of Homo sapiens with 8 samples.

Results

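The genes described here encode the nuclear part of complexes III, IV and V of mitochondrial oxidative phosphorylation, together with cytochrome c, the factors that assemble complex IV and the inhibitor of ATP synthase. Of 49 genes chosen by name, 48 were matched to 1 of the 58051 Ensembl gene identifiers in the count files. SCO2 was not matched and was not analysed here. The series holds 8 libraries of MDA-MB-231 (MDA231) cells, an established human triple-negative breast cancer line, and asks what changes when respiratory complex II is lost or left partly assembled. The 2 parental samples were unmodified, the 3 SDHB KO samples carried a knockout of SDHB, and the 3 SDHB KO SDHA low samples carried the same knockout together with a knockdown of SDHA. All were collected in full medium at 70% confluency and, apart from drug selection while the lines were made, received no treatment.

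As the methods describe, the knockout was made with a TALEN against the first exon of SDHB followed by hygromycin selection. The knockdown was made with an shRNA plasmid against SDHA, followed by puromycin treatment of the transfected cells. The methods give the sequenced sublines only the codes SHB and SH1 and name no empty vector for them, and the labels do not say what the codes stand for, whether a vector was present, or whether a line was a single clone, so that the effects of the genotype, of selection and of a line cannot be told apart. Replicates are numbered as biological replicates, and nothing says that they came from separate clones.

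Complex III passes electrons from ubiquinol to cytochrome c, complex IV passes them from cytochrome c to oxygen, and both pump protons across the inner membrane. Complex V, the ATP synthase, lets protons back through a membrane ring of c subunits that turns a central stalk, and the turning drives ATP synthesis in the catalytic head, while a peripheral stalk keeps the head still. Each complex is a mosaic of a few subunits encoded by mitochondrial DNA and many encoded in the nucleus, and SDHA and SDHB, the targets of the study's modifications, belong to complex II, which is wholly nuclear and feeds the ubiquinol used by complex III.

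Libraries were 3′ end libraries in which a gene's reads come from the ends of its transcripts, so a level is given as CPM (the count scaled to library size, by the TMM method) and is not divided by gene length. Counted reads per sample ranged from 773042 to 1427141, and 3 counts, the floor used here, stood for 2.1 to 3.88 CPM before TMM scaling. With TMM scaling, 3 counts were 2.24 CPM in SDHB KO SDHA low replicate 2 and 4.10 CPM in SDHB KO replicate 1. The floor covers counting error only, whereas the 95% intervals of fold changes come from the edgeR fit and include the spread between replicates. Replicates differed by more than sampling noise in every group, with a chi-square per degree of freedom of 2.19 for the parental pair and 10.6 and 11.3 for the 2 pairs that include SDHB KO SDHA low replicate 2, the deepest library, which stood apart from the rest. Multimapping reads, which were not counted, made up 14.5% to 16.1% of reads in SDHB KO samples, 10.2% to 10.9% in parental samples and 9.72% to 12.3% in SDHB KO SDHA low samples. SDHA, the knockdown target, had 74.0 and 91.6 CPM in parental samples, 148, 135 and 151 CPM in SDHB KO samples and 8.45, 12.7 and 17.8 CPM in SDHB KO SDHA low samples, lowest in the knockdown group. SDHB had 0 to 4 counts per sample, also in parental cells, so its 3′ reads check nothing. VIM (685 to 999 CPM) and CD44 (198 to 323 CPM) were present, as in a mesenchymal-like line. Of 8 luminal or epithelial genes 4 were tested, among them KRT18 at 951 to 1699 CPM, and these 4 had log2 fold changes of 0.07 to 0.54 in SDHB KO versus parental (median 0.45) and of -0.65 to -0.48 in the knockdown group versus SDHB KO, none called. Their part in the results was not tested. The 5 fibroblast and 4 leukocyte genes had at most 6 counts in any sample.

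The members formed a small part of the RNA. Summed over the 48 genes, they held 15584 and 16165 CPM in parental samples, 16742, 13813 and 15129 CPM in SDHB KO samples and 14931, 16225 and 14872 CPM in SDHB KO SDHA low samples. These sums are 1.38% to 1.67% of the TMM-scaled library sizes, which are not the raw counted reads. In this scaled sum the 3 groups overlapped, and the members' share of the raw counts is not given here. The 9 complex III subunits summed to 3407 and 3617 CPM in parental samples, to 3077, 2625 and 2994 CPM in SDHB KO samples and to 3111, 3376 and 3188 CPM in SDHB KO SDHA low samples. Every SDHB KO sample was below every sample of both other groups in that sum. The means of 2 abundant genes carried most of the gap to the parental mean: CYC1 with 823 CPM in parental and 518 CPM in SDHB KO samples, and UQCRQ with 1149.6 and 940.5 CPM. The 11 subunits of complex IV ranged from 3629 to 4531 CPM and the 15 of complex V from 6619 to 8683 CPM, in each case with overlapping groups. The 11 matched complex IV assembly genes summed to only 392 to 490.3 CPM.

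**Figure D1:**
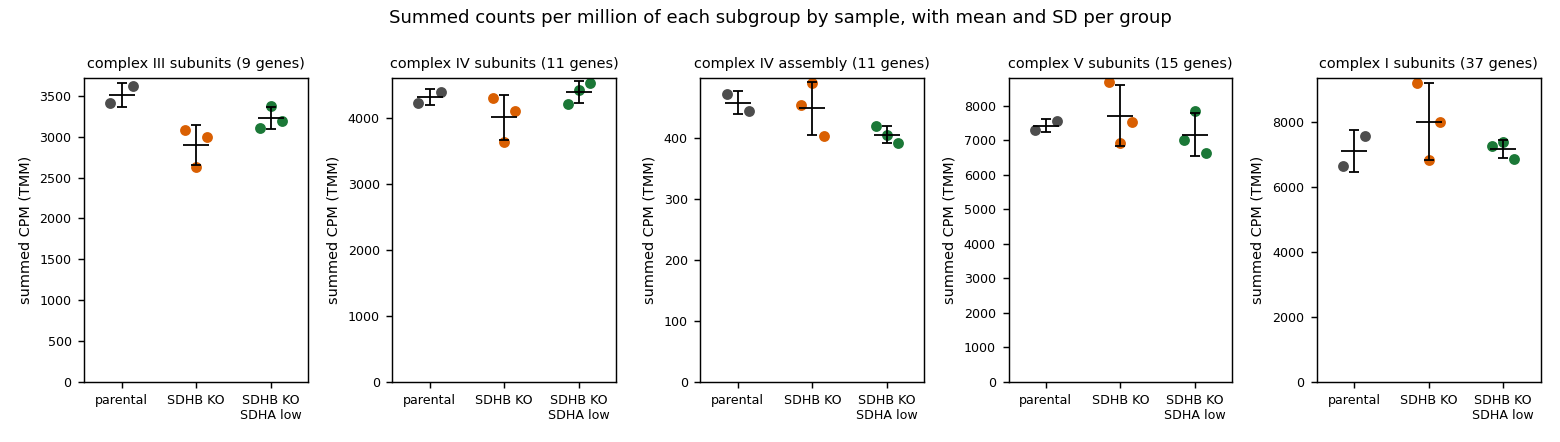
Summed CPM (TMM-scaled, vertical axis from 0) of each subgroup in every sample of the 3 groups on the horizontal axis. Points are samples, and bars are the group mean and SD. SDHB KO samples sit lowest for complex III (2625 to 3077 CPM), whereas the groups overlap for complexes IV and V and for the 37 complex I subunits shown for comparison.

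Levels differed widely between members. The genes with the most counts were ATP5MC1 and ATP5MC2, which encode the same mature c subunit of the membrane ring, and ATP5MG, the g subunit, with means over the 8 samples of 1613, 1492 and 1322 CPM. In complex III the means ran from 74.6 CPM for UQCR11 to 985 CPM for UQCRQ, both small supernumerary subunits, and in complex IV from 70.04 CPM for COX7B to 1085 CPM for COX4I1. These are levels at transcript ends and say nothing on the ratio of the proteins. The assembly factors had a median of only 30.2 CPM. COX11, which delivers copper to complex IV, and COX16 held 33 and 6 counts over all 8 samples together and fell below the filter. This left 46 members for the tests, which were made with edgeR's quasi-likelihood method over all 7550 genes that passed the filter. A gene with a Benjamini-Hochberg adjusted p below 0.1 was called.

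Loss of SDHB was examined first, by setting SDHB KO versus parental samples. The edgeR test called 4 of the 46 members (8.70%), all lower in SDHB KO, beside 5.54% of all genes tested, or 2.4% called lower. They were the ATP synthase subunits ATP5F1D, ATP5F1E and ATP5PB and the complex III subunit CYC1. No member of the complex IV lists was called. At an unadjusted p below 0.05 there were 11 members, beside 17.5% of all genes. Of them 2 were higher, against 9.11% of all genes, and 9 lower, against 8.34%. Over the 46, 19 log2 fold changes were above 0 (41.3%, against 49.9% of all genes) and 27 below, with a median of -0.12 against -0.00072 for all genes. Samples did not overlap, with SDHB KO lower, for 14 members (30.4%, against 18.6% of all genes), and with SDHB KO higher for 8 (17.4%, against 19.3%).

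These calls rest on both parental samples. With either one left out, edgeR called 0 members, while 0 and 49 of all genes were called; in those fits the lone parental sample was assumed to vary as the other groups do. The log2 fold changes without parental replicate 1 or 2 were -1.04 and -1.01 for ATP5F1D and -0.74 and -0.60 for CYC1, close to those with both samples. With SDHB KO SDHA low replicate 2 left out, the same comparison called 7 members, the 4 above and COX6C lower, ATP5PO and ATP5MF higher, and 11.4% of all genes.

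The promoters of the called genes are shown because they allow the members to be set beside known control elements of respiratory genes. The RefSeq promoter table (GRCh38.p14) holds 40 of the 48 matched members and, of the 4 called genes, ATP5F1E and ATP5PB. Letters run 5′ to 3′ on the gene's own strand, from the 250 bases before the RefSeq start. Bases that GENCODE gives as an untranslated region are left out. Capitals mark CCAAT, read on either strand, in the first sequence and the palindrome CTCGCGAG in the second. The first lies at chr20:59032346-59032585 on the minus strand and the second at chr1:111449257-111449463 on the plus strand. GENCODE starts ATP5PB further upstream, at chr1:111448864, so the second stretch lies inside the gene's GENCODE span.
ATP5F1E: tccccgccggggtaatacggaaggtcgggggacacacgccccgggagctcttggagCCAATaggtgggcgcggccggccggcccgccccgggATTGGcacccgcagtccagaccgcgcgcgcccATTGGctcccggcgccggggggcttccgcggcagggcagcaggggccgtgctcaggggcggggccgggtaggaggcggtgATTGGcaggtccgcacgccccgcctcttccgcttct
ATP5PB: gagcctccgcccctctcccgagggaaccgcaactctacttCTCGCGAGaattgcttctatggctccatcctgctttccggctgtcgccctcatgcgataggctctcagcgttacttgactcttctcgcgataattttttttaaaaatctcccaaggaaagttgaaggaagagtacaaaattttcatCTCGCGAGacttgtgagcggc

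The ATP5F1E promoter held 4 matches to CCAAT and was GC-rich, at 74.8% of the 250 bases. The ATP5PB promoter held 2 matches to CTCGCGAG, at bases -167 to -160 and -21 to -14 from the RefSeq start, and had a GC content of 53.2%. That palindrome was searched after the sequence had been read, and it occurs in 1 of the 40 member promoters (2.5%) and in 0.874% of all 35116 promoters of the same length.

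Across the 40 member promoters, the letters GCGCANGCG, from the site of NRF1 (nuclear respiratory factor), were found on either strand in 11 (27.5%), against 6.56% of all promoters. They stood before ATP5F1C, ATP5MC2, ATP5ME, ATP5PF, ATP5PO, COX17, COX18, COX6A1, UQCR11, UQCRC1 and UQCRFS1. The core CCGGAAG, read by ETS-family factors such as GABP, was found in 12 (30%), against 8.52%, among them COX5B, COX6A1 and SCO1. The YY1 site AAGATGGCG stood only before ATP5PF (2.5% against 0.652%), and CCAAT before 16 (40%, against 32%). All motifs were read on both strands, and none contains another. Members gave 1 promoter each, whereas the set of all promoters was neither reduced to 1 per gene nor limited to the genes tested here. The 2 sets are thus unlike. Member promoters had a higher median GC content than all promoters (61% against 58%), and a match of letters is no evidence that a factor binds.

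ATP5F1D encodes the delta subunit of the central stalk of ATP synthase (chr19:1241746-1244825, plus strand, 4 exons; GRCh38). It had 340.1 and 348 CPM in parental samples, 177, 173 and 159 CPM in SDHB KO samples and 145, 163 and 209 CPM in SDHB KO SDHA low samples. Both modified groups lay wholly below the parental one and overlapped each other. The log2 fold change of SDHB KO versus parental was -1.02 (SE 0.218, adjusted p = 0.0158, edgeR), with a 95% interval of -1.47 to -0.57. ATP5F1D was also the one member called in SDHB KO SDHA low versus parental, at -0.997 (SE 0.217, adjusted p = 0.0575, edgeR). Between the modified groups the difference was 0.02, with an interval of -0.39 to 0.44. No pseudogene or overlapping gene is annotated for ATP5F1D.

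ATP5F1E, the epsilon subunit of the same stalk (chr20:59025475-59032345, minus strand, 3 exons), had 340.1 and 232 CPM in parental samples, 198, 182 and 131 CPM in SDHB KO samples and 139, 153 and 188 CPM in SDHB KO SDHA low samples. The parental samples were above all 6 others, but they differed from each other by more than the SDHB KO samples did. Against parental the log2 fold change was -0.75 in SDHB KO (SE 0.243, adjusted p = 0.098, edgeR), close to the threshold. Without parental replicate 1 it was -0.46. Its last exon overlaps TUBB1 on the other strand, and the strand setting of the counts is not given in the sources used here.

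ATP5PB, subunit b of the peripheral stalk (chr1:111448864-111462773, plus strand, 7 exons), had 180.5 and 113 CPM in parental samples, 71.2, 98.9 and 52.9 CPM in SDHB KO samples and 106, 112 and 90.3 CPM in SDHB KO SDHA low samples. SDHB KO samples lay below the parental ones, and SDHB KO SDHA low samples lay in between and overlapped the SDHB KO range. The log2 fold change was -0.98 in SDHB KO versus parental (SE 0.279, adjusted p = 0.0633, edgeR), and it moved between -0.61 without parental replicate 1 and -1.28 without parental replicate 2. The part of ATP5PB that holds its GENCODE start overlaps WDR77 on the other strand.

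CYC1, the cytochrome c1 subunit that hands electrons to cytochrome c (chr8:144095039-144097525, plus strand, 7 exons), had 784 and 862 CPM in parental samples, 525, 459 and 571 CPM in SDHB KO samples and 669, 760.3 and 685 CPM in SDHB KO SDHA low samples. The 3 groups did not overlap, with SDHB KO lowest and SDHB KO SDHA low in the middle. The log2 fold change was -0.67 in SDHB KO versus parental (SE 0.196, adjusted p = 0.0734, edgeR). Against SDHB KO it was 0.44 in SDHB KO SDHA low (adjusted p = 0.304, edgeR), which did not pass.

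**Figure D2:**
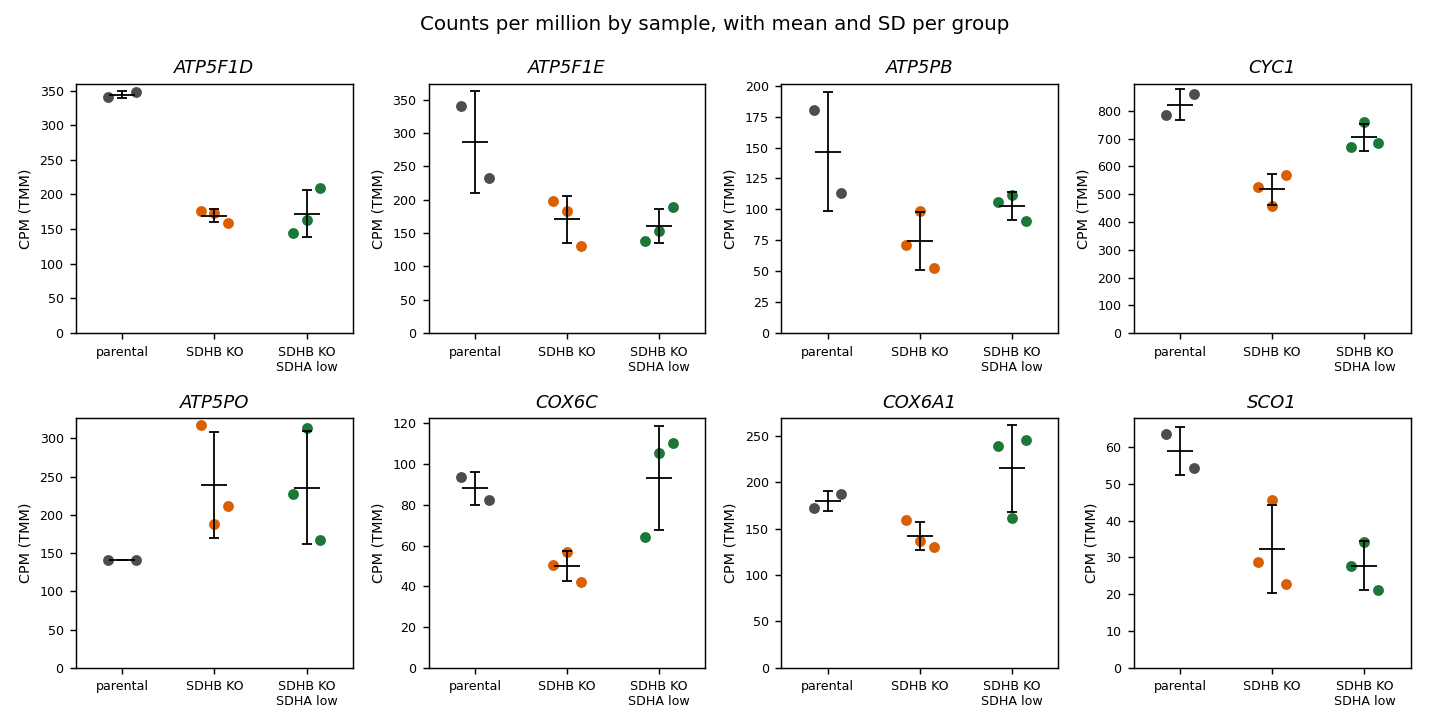
CPM (TMM-scaled, vertical axis from 0) of 8 members in each sample, by group on the horizontal axis; points are samples and bars are group mean and SD. The 4 genes in the top row were called lower in SDHB KO than in parental samples; of these, ATP5F1D stays low in SDHB KO SDHA low (145 to 209 CPM) and CYC1 lies in between (669 to 760.3 CPM).

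No other subunit of ATP synthase was called. ATP5PO, which joins the peripheral stalk to the head and is also known as the oligomycin sensitivity conferral protein, had 141 CPM in both parental samples, 317, 188 and 212 CPM in SDHB KO samples and 227, 313 and 167 CPM in SDHB KO SDHA low samples. All 6 modified samples were above the parental ones. Its log2 fold change of 0.76 in SDHB KO did not pass (SE 0.278, adjusted p = 0.144, edgeR), nor did that of 0.75 in SDHB KO SDHA low versus parental (adjusted p = 0.253, edgeR). A read-through gene shares the last exon of ATP5PO on the same strand. ATP5MF, the f subunit of the membrane part, had 81.0 and 129 CPM in parental samples and 161, 140.1 and 224 CPM in SDHB KO samples, with no overlap, and a log2 fold change of 0.75 (adjusted p = 0.151, edgeR). ATP5MF too shares its last exon with PTCD1 and a read-through gene.

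The genes of the catalytic head were not called. ATP5F1B, the beta subunit that holds the catalytic sites, had 605 and 654 CPM in parental samples, 792, 656 and 628 CPM in SDHB KO samples and 512, 504 and 568 CPM in SDHB KO SDHA low samples. The SDHB KO samples overlapped the parental range, with a log2 fold change of 0.14 and an interval of -0.28 to 0.55, whereas all SDHB KO SDHA low samples were below both other groups, at -0.39 versus SDHB KO. ATP5F1A, the alpha subunit, had 222 and 165 CPM in parental samples, 222, 139 and 134 CPM in SDHB KO samples and 249, 251 and 245 CPM in SDHB KO SDHA low samples, the highest of the 3 groups, at 0.60 versus SDHB KO with no overlap. The gamma subunit ATP5F1C had the lowest mean of the complex V subunits, 36.05 CPM.

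Of the 3 genes of the c ring none was called. ATP5MC1 had 1432 and 1509 CPM in parental samples, 2125, 1572 and 1802 CPM in SDHB KO samples and 1541, 1594 and 1329 CPM in SDHB KO SDHA low samples. ATP5MC3 had 964 and 992 CPM in parental samples, 855, 676 and 644 CPM in SDHB KO samples and 856, 1022 and 963 CPM in SDHB KO SDHA low samples. In SDHB KO, ATP5MC1 was thus above and ATP5MC3 below both parental samples. The log2 fold changes were 0.32 and -0.43, and neither passed (adjusted p = 0.437 and 0.262, edgeR). ATP5MC2 differed by 0.13, with an interval of -0.30 to 0.56. ATP5IF1, which blocks ATP synthase from running backwards, overlapped between all groups at 56.1 to 134 CPM.

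Ratios of counts within a sample do not depend on the scaling between samples. They are given without a test for pairs chosen after the values had been seen. The log2 ratio of ATP5F1D to ATP5F1B was -0.83 and -0.91 in parental samples, -2.17, -1.92 and -1.99 in SDHB KO samples and -1.82, -1.63 and -1.44 in SDHB KO SDHA low samples. The 3 groups were separate, with SDHB KO lowest. In SDHB KO SDHA low versus SDHB KO, ATP5F1D itself had a log2 fold change of 0.02 and ATP5F1B one of -0.39. ATP5PB against its stalk partner ATP5PO gave 0.35 and -0.32 in parental samples, -2.16, -0.93 and -2 in SDHB KO samples and -1.10, -1.49 and -0.89 in SDHB KO SDHA low samples. ATP5MC3 against ATP5MC1 gave -0.57 and -0.61 in parental samples, -1.31, -1.22 and -1.48 in SDHB KO samples and -0.85, -0.64 and -0.47 in SDHB KO SDHA low samples, so that in this ratio only the SDHB KO group stood apart. The same held for CYC1 against UQCRC1, a core subunit of complex III, at 1.21 in both parental samples, 0.31 to 0.60 in SDHB KO and 0.73 to 1.47 in SDHB KO SDHA low.

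In complex III, 7 of 9 log2 fold changes in SDHB KO versus parental were below 0, with a median of -0.25. Of these CYC1 alone was called. UQCRQ, which binds beside cytochrome b, had 1098 and 1201 CPM in parental samples and 896, 887 and 1038 CPM in SDHB KO samples, with a log2 fold change of -0.29 (adjusted p = 0.46, edgeR). UQCR11 had the highest fold change of the complex III subunits, 0.52 (adjusted p = 0.372, edgeR), from 54.4 and 67.7 CPM to 90.3, 61.1 and 110.1 CPM, with overlapping samples. The core subunit UQCRC1 differed by 0.08, with an interval of -0.38 to 0.53. CYCS, the somatic form of cytochrome c, ranged from 54.0 to 97.1 CPM and overlapped between all groups.

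In complex IV, 7 of 11 subunits were below 0 in SDHB KO versus parental, with a median of -0.22, and for 6 of the 11 (54.5%, against 18.6% of all genes) the samples did not overlap with SDHB KO lower. For 2 others (18.2%, against 19.3%) they did not overlap with SDHB KO higher. COX6C had 93.7 and 82.3 CPM in parental samples, 50.6, 56.7 and 42.1 CPM in SDHB KO samples and 64.0, 105 and 110.3 CPM in SDHB KO SDHA low samples. SDHB KO was lower than both other groups in every sample. The log2 fold change of -0.82 versus parental missed the threshold (SE 0.286, adjusted p = 0.125, edgeR). COX5B, which binds zinc, followed at -0.54, from 339 and 300 CPM to 278, 187 and 196 CPM (adjusted p = 0.195, edgeR), and COX7C at -0.61, from 239 and 154 CPM to 120.4, 148 and 119.8 CPM (adjusted p = 0.24, edgeR). COX4I1, the isoform of subunit 4 found in most tissues, differed by 0.12 with an interval of -0.31 to 0.55. COX7A2L, a factor that joins complexes III and IV into supercomplexes, had 75.2 and 75.7 CPM in parental samples and 94.4, 90.05 and 112 CPM in SDHB KO samples, a log2 fold change of 0.39 that did not pass (adjusted p = 0.44, edgeR).

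Among the 9 tested assembly factors of complex IV none was called in any comparison by the main edgeR fit. DESeq2 called none either, but it gave COX18, COX19 and COX20 no adjusted p and so could not call them. The same held for SCO1 and SURF1 in SDHB KO versus parental. SCO1 was called in 1 alternative fit of that comparison. At an unadjusted p below 0.05 there was 1 of the 9 in SDHB KO versus parental, beside 17.5% of all genes. There were none in SDHB KO SDHA low versus SDHB KO, beside 12.1%, and 2 in SDHB KO SDHA low versus parental, beside 12.3%. SCO1, a copper chaperone for subunit 2, had 63.6 and 54.4 CPM in parental samples, 28.7, 45.6 and 22.7 CPM in SDHB KO samples and 27.8, 34.3 and 21.2 CPM in SDHB KO SDHA low samples. All 6 modified samples were below the parental ones. The log2 fold changes versus parental were -0.87 (adjusted p = 0.186, edgeR) and -1.07 (adjusted p = 0.185, edgeR). COX20, a chaperone of subunit 2, had 39.3 and 23.9 CPM in parental samples, 17.8, 25.6 and 16.2 CPM in SDHB KO samples and 14.5, 5.22 and 18.9 CPM in SDHB KO SDHA low samples. Its last exon overlaps HNRNPU on the other strand. The change of -1.36 in SDHB KO SDHA low versus parental had an interval of -2.36 to -0.35 (adjusted p = 0.233, edgeR). COX18 and COX19 lay between 8.95 and 25.3 CPM, and their standard errors of 0.573 and 0.497 in SDHB KO versus parental were the widest of the members. SURF1 differed by 0.04, with an interval of -0.73 to 0.80.

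The knockdown of SDHA was examined by setting SDHB KO SDHA low versus SDHB KO samples. The SDHB KO samples are those of the first comparison, so the 2 comparisons are not independent. A gene low in them by chance comes out lower in the first and higher here. The edgeR test called 0 of the 46 members, while it called 1.51% of all genes. DESeq2 also called 0, but gave no adjusted p for COX18, COX19 and COX20. At an unadjusted p below 0.05 there were 9 members, beside 12.1% of all genes. Of them 8 were higher, against 5.46% of all genes, and 1 lower, against 6.66%. The median log2 fold change was 0.07 against 0.01 for all genes, with 28 above 0 (60.9%, against 51.1% of all genes) and 18 below. Samples did not overlap, with SDHB KO SDHA low higher, for 9 members (19.6%, against 8.70% of all genes) and lower for 2 (4.35%, against 8.69%).

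The member closest to the threshold was COX6C, whose values are given above, with a log2 fold change of 0.91 (SE 0.256, adjusted p = 0.107, edgeR). COX6A1, the form of subunit 6a found outside muscle, had 159, 137 and 131 CPM in SDHB KO samples and 239, 161 and 245 CPM in SDHB KO SDHA low samples, a log2 fold change of 0.60 (adjusted p = 0.251, edgeR). COX7A2 had 365, 332 and 315 CPM in SDHB KO samples and 477, 416 and 538 CPM in SDHB KO SDHA low samples, a log2 fold change of 0.50 (adjusted p = 0.265, edgeR). Each of the 3 was higher in every SDHB KO SDHA low sample than in any SDHB KO sample. Without SDHB KO SDHA low replicate 2, COX6A1 and COX7A2 were called at log2 fold changes of 0.75 and 0.57, and without replicate 1 of that group COX6C was called at 1.11. COX6A1 shares its last exon with another gene on the same strand, and 17 pseudogenes are annotated for COX6C.

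In complex III, UQCRC2, a core subunit, had 119.04, 94.5 and 87.4 CPM in SDHB KO samples and 165, 151 and 136 CPM in SDHB KO SDHA low samples, a log2 fold change of 0.59 (adjusted p = 0.251, edgeR). UQCRFS1, the Rieske iron-sulfur protein, differed by 0.46 (adjusted p = 0.396, edgeR), at 134, 127 and 162 CPM against 157, 239.5 and 183 CPM, and its samples overlapped. In complex V, ATP5F1A stood at 0.60 (adjusted p = 0.257, edgeR), ATP5PB at 0.47 (adjusted p = 0.475, edgeR) and ATP5MF at -0.46 (adjusted p = 0.456, edgeR), and ATP5F1B, the 1 lower member at an unadjusted p below 0.05, at -0.39 (adjusted p = 0.389, edgeR).

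SDHB KO SDHA low versus parental shares its parental samples with the first comparison and its SDHB KO SDHA low samples with the second. The edgeR test called 1 of the 46 members (2.17%), ATP5F1D, lower, beside 0.914% of all genes, or 0.689% called lower. At an unadjusted p below 0.05 there were 5 members, beside 12.3% of all genes. Of them 1 was higher, against 5.83% of all genes, and 4 lower, against 6.46%. The median log2 fold change was 0.02, as for all genes, with 26 above 0 (56.5%, against 51.4%). Samples did not overlap for 4 members that were higher (8.70%, against 15.2% of all genes) and 10 that were lower (21.7%, against 15.5%). ATP5F1E was at -0.84 (SE 0.242, adjusted p = 0.143, edgeR). UQCRQ was at -0.32, COX7A2L at 0.45 and COX7C at -0.36, none of them called. With either parental sample or SDHB KO SDHA low replicate 1 left out, edgeR called 0 members, while ATP5F1D stood at -1.02, -0.99 and -0.89 in these 3 fits. Without replicate 2 of that group it called 3, ATP5F1D at -0.96, ATP5F1E at -0.82 and SCO1 at -1.28.

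**Figure D3:**
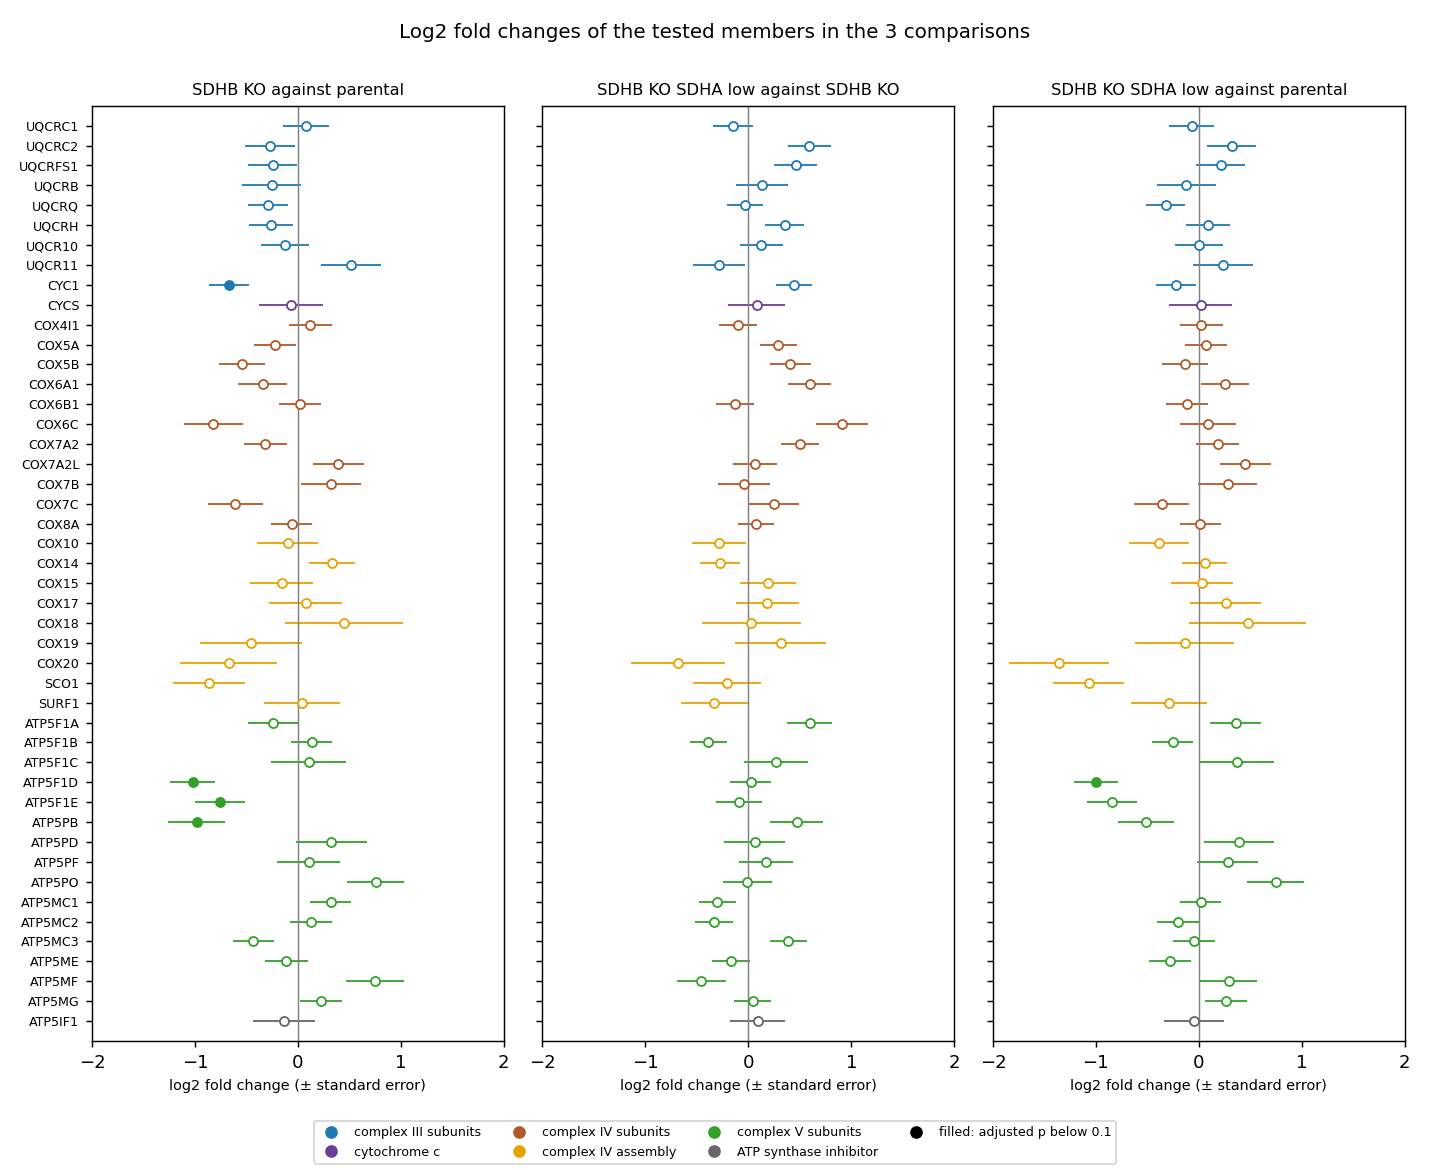
Log2 fold changes (horizontal axis) with standard errors of the 46 tested members (rows, coloured by subgroup) in the 3 comparisons; filled points have an adjusted p below 0.1 in edgeR. In SDHB KO versus parental 4 points are filled, all left of 0; none is filled in SDHB KO SDHA low versus SDHB KO, and only ATP5F1D is filled in SDHB KO SDHA low versus parental.

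The precision limits what these comparisons can show. The median SE of a member was 0.245 on the log2 scale in SDHB KO versus parental, 0.217 in SDHB KO SDHA low versus SDHB KO and 0.244 in SDHB KO SDHA low versus parental. The 95% interval lay wholly between -1 and 1 for 32, 37 and 35 of the 46 members in these comparisons. In simulated data of the first comparison 7523 genes of all levels were fitted, but the changed genes were drawn only from well-counted ones. Of 67 genes changed by 1 on the log2 scale 45 were recovered (67.2%), but of 67 changed by 0.5 only 3 (4.48%). Members include genes with few counts, such as COX18, so that these shares are no estimate for the members themselves. Over all genes tested the median SE in this comparison was 0.391, wider than for the members. Fewer cells of a type and less RNA per cell cannot be told apart in these bulk samples.

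Several properties of the reads moved with the groups, and their part in the results was not tested except where a value is given. Of the 46 members, 29 have at least 1 pseudogene named after them, and reads that also match a pseudogene would not have been counted. In SDHB KO versus parental the median log2 fold change was -0.12 for these 29 and -0.11 for the other 17. At the 3′ end of the transcript, over 300 bases, members had a median GC content of 40.5% and all genes tested one of 43.3%. In all genes, the median log2 fold change of SDHB KO versus parental was 0.07 above the median GC content and -0.08 at or below it, and in members it was 0.03 and -0.19. With a correction for this trend the same comparison called 4 members, CYC1 at -0.75, ATP5F1D at -0.99, ATP5PB at -0.86 and ATP5F1E at -0.73.

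Other genes of the pathway were read from lists. Of 6 tested genes of 8 listed as other genes of complex III, 16 of 26 of complex IV and 7 of 9 of complex V (assembly factors, further subunits and isoforms), and of 9 of 12 regulators of nuclear respiratory genes, none was called in any of the 3 comparisons by edgeR. In SDHB KO versus parental, 3 of these 38 genes had an unadjusted p below 0.05, beside 17.5% of all genes: FMC1, an ATP synthase assembly factor, at 1.06 (adjusted p = 0.135, edgeR), COA8, a complex IV assembly factor, at 2.61 (adjusted p = 0.127, edgeR; 0 to 18.9 CPM in all samples) and POLRMT, the mitochondrial RNA polymerase, at -0.61 (adjusted p = 0.183, edgeR). The regulators had a median of -0.47, with 7 of 9 below 0. The 6 subunits of these complexes encoded by mitochondrial DNA had 0 to 3 counts per sample and could not be tested, since mitochondrial reads were removed before alignment.

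Complex I, the other large nuclear-encoded complex, was listed for comparison with 34 of 37 subunits tested. In SDHB KO versus parental 3 were called (8.82%), all higher, beside 5.54% of all genes called in either direction. Among them were NDUFA9 at 1.2 (adjusted p = 0.09995, edgeR) and NDUFA13 at 2.80 (adjusted p = 0.0596, edgeR). In SDHB KO SDHA low versus SDHB KO 1 was called (2.94%, against 1.51% of all genes), NDUFA12, higher at 1.2 (adjusted p = 0.027, edgeR). In SDHB KO SDHA low versus parental 1 was called (2.94%, against 0.914%), NDUFV1, which binds NADH, lower at -0.91 (adjusted p = 0.0696, edgeR). Whether complex I and the members differ in these counts was not tested.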

How the data were processed

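Samples were grouped by the genetic modification in the labels. To make the raw counts, the authors trimmed reads with Trimmomatic, removed ribosomal and mitochondrial reads with Sortmerna, and aligned to GRCh38 and counted with STAR 2.5.2b. The normalized counts that the authors deposited, a signal scaled per sample, were used only to check the files: for SDHB KO, replicate 1 of the one matches replicate 3 of the other and the reverse, and the labels of the raw counts were kept. The authors' annotation was another release than GENCODE 44, which gave names and positions here.

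Raw counts of genes with a BaseMean above 5 were fitted with edgeR 4.0.16 (R 4.3.3; TMM scaling, quasi-likelihood test, 1 fit of 8 samples and 3 groups, Benjamini-Hochberg adjustment over all 7550 genes, adjusted p below 0.1). The SE is the log2 fold change divided by the square root of F. Scripts were tested on simulated data. Members and lists were chosen with earlier results of these data known. The text names called members, the 3 largest changes per subgroup and comparison and the 3 members with the most counts; genes outside this rule were named after their values were seen. Alternatives were DESeq2 1.42.0, other scalings and filters, a threshold of 0.05, fits of 2 groups, a replicate block and each sample left out. A correction for GC content was chosen after seeing the data. P-values set a group difference against the spread between these samples, shared over the 3 groups. They say nothing on variation between separately made lines. The values of 1 complex I gene are not reported here.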

Additional observations from a re-analysis of the deposited data

How the results depend on the processing

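Under every alternative the 4 members called in SDHB KO versus parental stayed lower. The count of 4 became 2 without the filter on low counts, 7 with only the 2 groups compared (2 higher, 5 lower), 1 at an adjusted p below 0.05, and 0 to 7 with single samples left out. It was 0 without either parental sample, 1 without SDHB KO replicate 1 or 3, and 7 without SDHB KO SDHA low replicate 2. ATP5F1D was called in 17 of 19 alternatives, ATP5PB in 11, CYC1 in 10 and ATP5F1E in 7. In SDHB KO SDHA low versus SDHB KO the count of 0 became 1 without the filter and 0 to 2 with single samples left out. In SDHB KO SDHA low versus parental the count of 1 became 0 with only the 2 groups or at an adjusted p below 0.05, and 0 to 3 with single samples left out. The calls over all genes moved too: in SDHB KO versus parental from 418 to 773 with only the 2 groups, to 171 at an adjusted p below 0.05, and to 0 to 846 with single samples left out. The median log2 fold change of the members moved by less than the median SE of a single member under all alternatives. It lay at -0.16 to -0.03, 0.01 to 0.15 and -0.03 to 0.04 in the 3 comparisons. That SE is not the uncertainty of a median over the members. The cause of these moves was not tested, beyond the fewer samples or genes that an alternative holds.

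Same-numbered samples were not treated as pairs in the main fit. Over 7 pairs the correlation of deviations from the group means was -0.27 to 0.0931. Deviations within groups of 2 or 3 samples sum to 0, and SDHB KO numbers 1 and 3 are exchanged between raw and normalized counts. These correlations therefore cannot decide whether samples were paired. With the replicate number as a block, edgeR called 1 member (ATP5F1D) and 199 of all genes in SDHB KO versus parental and 0 members in SDHB KO SDHA low versus parental. Alternatives chosen after seeing the data were a block with SDHB KO replicates 1 and 3 exchanged (1 and 0 members) and the GC correction with the replicate block (2 and 0).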
